A study of Mus musculus with 12 samples.

Results

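The skeletal muscle lineage was followed through 35 named genes, chosen by symbol from the regulators of muscle formation and the parts of the muscle fibre. By role they were 6 transcription factors, 4 genes of adhesion, fusion and the nerve-muscle synapse, 7 genes of the thick filament and its assembly, 11 of the thin filament, 4 of the Z-disc with titin and desmin, and 3 of calcium release and energy supply. All 35 were found among the 54532 genes of the deposited table. A gene was tested when its normalised count, the number of reads divided by a size factor for the library, reached 10 in 6 or more of the 12 libraries. Of the 35, 32 met this level, against 16733 genes in all. *Pax3*, *Pax7* and *Myf6* did not.

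The samples were limb mesenchyme cells of mouse embryos at stage E14.5. Both groups carried Prrx1-Cre, a Cre recombinase driven by a limb enhancer of *Prrx1*, together with a transgene at Rosa26 that Cre switches on by removing a stop cassette (LSL). In the iCreb5 group this was bovine Creb5 with an HA tag, followed by GFP on the same transcript (LSL-bovine-Creb5-ires-GFP), and in the tdTomato group it was the red fluorescent protein alone (LSL-tdTomato). Each group had 6 libraries of polyadenylated RNA from sorted fluorescent cells, and the comparison asks what added Creb5 changes in this mesenchyme. By their labels, 3 libraries of each group came from litter 3 and 1 of each from litters 4, 5 and 6. The design text speaks of 6 litters, and each labelled litter has a batch label of its own, so effects of the litter and of the batch cannot be told apart. The labels do not say how many embryos went into a library, and each p-value below measures the spread among libraries.

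Limb muscle is a separate lineage from the mesenchyme around it. Its precursors leave the somites under *Pax3* and enter the limb bud, where *Myf5* and *Myod1* commit them to the muscle fate and *Myog* drives them to differentiate. The cells then fuse into fibres through *Mymk* and assemble sarcomeres, at first with embryonic forms of myosin, actin and troponin. Prrx1-Cre marks the mesenchyme that forms skeleton, tendon and connective tissue, and not the cells that come from the somites. In bulk RNA of this kind, fewer cells of a type and less RNA per cell cannot be told apart.

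Promoters of 4 members are shown because their values varied together from library to library, as described further on. Each is the window from 250 bases before to 50 bases after the annotated start of transcription, taken from RefSeq on GRCm38.p6 and printed 5' to 3' on the strand of the gene. Capitals mark every E-box, the 6-base sequence CANNTG that the MyoD family binds, and every match to the CArG box, the site of serum response factor.
*Myog*, chr1:134289754-134290053, plus strand: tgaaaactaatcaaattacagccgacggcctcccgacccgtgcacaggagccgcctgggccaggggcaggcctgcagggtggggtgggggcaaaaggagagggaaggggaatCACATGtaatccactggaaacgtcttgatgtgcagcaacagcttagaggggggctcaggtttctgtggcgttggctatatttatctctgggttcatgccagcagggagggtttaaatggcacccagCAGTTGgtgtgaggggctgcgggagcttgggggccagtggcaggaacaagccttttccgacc
*Acta1*, chr8:123894726-123895025, minus strand: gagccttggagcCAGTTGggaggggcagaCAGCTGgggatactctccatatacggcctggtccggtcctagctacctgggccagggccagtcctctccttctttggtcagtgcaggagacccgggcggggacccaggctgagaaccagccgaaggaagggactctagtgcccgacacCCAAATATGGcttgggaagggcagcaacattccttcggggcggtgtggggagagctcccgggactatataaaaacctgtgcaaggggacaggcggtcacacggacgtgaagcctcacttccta
*Actc1*, chr2:114052826-114053125, minus strand: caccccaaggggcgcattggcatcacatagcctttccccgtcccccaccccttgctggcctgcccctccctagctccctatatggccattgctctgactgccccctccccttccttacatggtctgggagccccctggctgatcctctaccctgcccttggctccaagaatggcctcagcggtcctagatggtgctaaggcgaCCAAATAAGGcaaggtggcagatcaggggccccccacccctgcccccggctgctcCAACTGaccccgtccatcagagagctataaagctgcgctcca
*Tnni1*, chr1:135799171-135799470, plus strand: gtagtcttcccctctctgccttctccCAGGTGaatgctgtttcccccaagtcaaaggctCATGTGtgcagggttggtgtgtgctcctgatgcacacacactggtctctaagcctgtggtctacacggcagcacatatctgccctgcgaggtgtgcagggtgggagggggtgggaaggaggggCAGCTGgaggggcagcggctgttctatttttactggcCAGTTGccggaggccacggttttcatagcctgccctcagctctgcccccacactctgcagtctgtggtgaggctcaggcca

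The *Myog* window held 2 E-boxes, at -138 and -12 from the start. *Tnni1* held 4, and *Acta1* and *Actc1* each held a CArG box beside 2 and 1 E-boxes. RefSeq windows were found for 27 of the 35 members, 30 windows in all, since some genes have more than 1 start. An E-box stood in 26 of the 30 windows (86.7%), against 72.3% of the 32851 promoter windows of all genes. The E-box form CAGCTG, which reads the same on both strands and is counted within CANNTG, stood in 36.7% against 16.3%. A CArG box was found in 2 of 30 windows (6.67%, against 1.63%). A strict form of the MEF2 site was found in 1 of 30 (3.33%, against 0.557%), that of *Ttn*, with both strands searched. Looser forms of the MEF2 site were not counted. Windows without a match, *Myog* among them, therefore cannot be said to lack it. All these counts are of matches of letters in a fixed window and describe the sequences only.

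RNA of muscle genes was present in every library at a low level. The 35 genes together made up 0.0155% to 0.0341% of the normalised counts of a library. This includes *Tpm2*, which is also made outside skeletal muscle. The 19 sarcomere genes left without *Tpm2*, *Des* and *Tnnc2* made up 0.00601% to 0.0190%. The mean normalised count had a median of 79.6 over the 35, the 3 untested members included. Over all tested genes, with untested genes left out, that median was 468. Levels were also put on a scale of normalised counts per kilobase of exon, with the exons of all transcripts of a gene joined. It compares genes only roughly. For *Tnnt2* the joined exons come to 7752 bases, against 1200 in its longest coding transcript, which lowers its value. *Tpm2* stood highest at 591, followed by *Actc1* at 491, *Myog* at 296, *Acta1* at 205 and *Mylpf* at 184. On this scale 12 of the 35 were under 10, among them *Ckm* at 3.63, *Ryr1* at 2.06, slow myosin *Myh7* at 1.29, *Ttn* at 0.875 and the precursor genes *Pax3* and *Pax7* at 1.08 and 0.852. The SD within groups on the log2(value + 1) scale had a median of 0.69 over the tested members and 0.35 over all tested genes, which were not matched to the members by level. Such a spread was not found in muscle genes alone. The median SD was 1.45 for markers of red cells, 0.99 for epidermis and 0.73 for leukocytes, but 0.36 for limb mesenchyme and 0.29 for cartilage.

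None of the 32 tested members passed the threshold between iCreb5 and tdTomato (limma on log2(value + 1), Benjamini-Hochberg adjusted p under 0.05), and the lowest adjusted p among them was 0.133. Over all tested genes, 6.72% passed, 3.87% higher and 2.85% lower in iCreb5. At an unadjusted p under 0.05 there were 2 members, *Chrng* higher and *Tnni2* lower, where the share over all tested genes was 18.2%. On whole reads recovered from the table, edgeR's quasi-likelihood test and DESeq2 also called 0 members, where they called 6.65% and 9.78% of all tested genes. The values of the iCreb5 and tdTomato libraries overlapped for every tested member, while 4.75% of all tested genes had groups that did not overlap. The log2 change had a median of 0.32 over the members, 25 of them above 0 and 7 below, and 0.00 over all genes. It was 0.25 inside litter 3 and 0.37 for litters 4 to 6 alone. The 95% interval of the change reached 1 or more in size for 19 of the 32 members, and stayed within 0.5 of 0 for 3, *Tpm2*, *Tnnt1* and *Des*. Most of these intervals are wide, as the plot of changes shows, so a call not made does not show that the groups were alike.

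**Figure D1:**
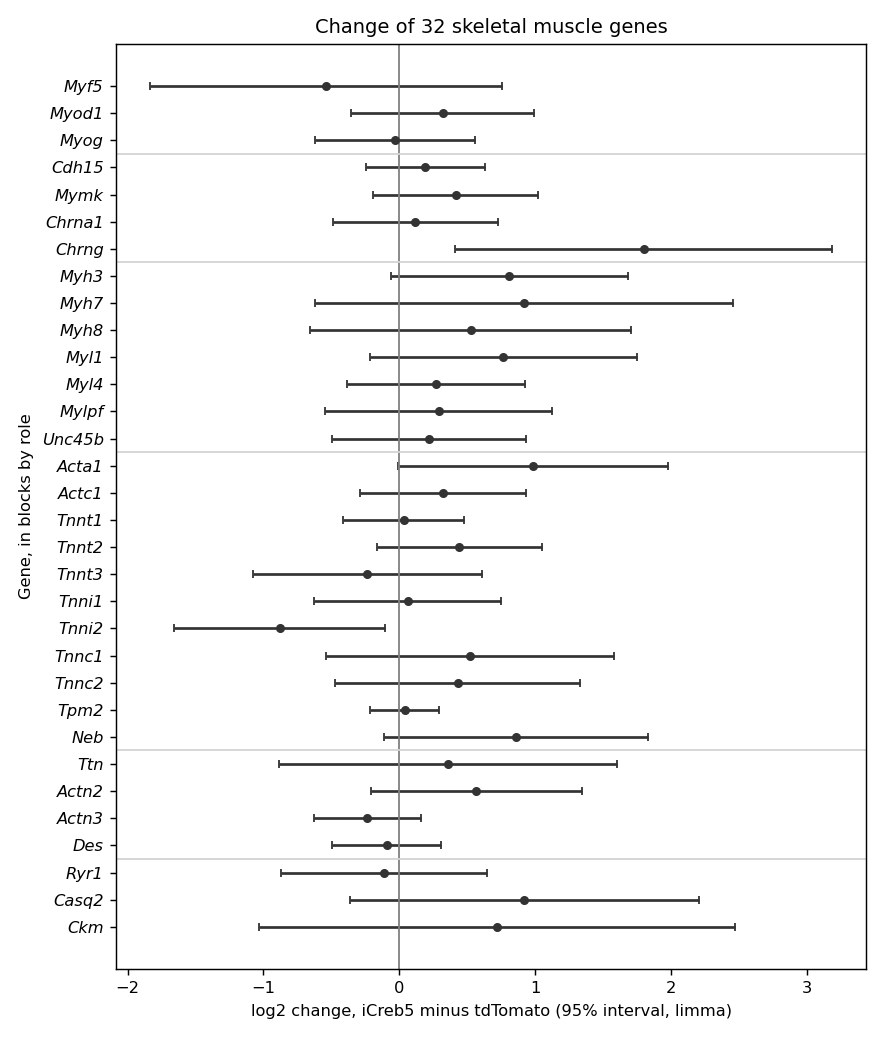
Log2 change of each of the 32 tested muscle genes, iCreb5 minus tdTomato (horizontal axis, log2 of value + 1, points), with 95% intervals from limma (bars) and genes in blocks by role. *Chrng* (1.80) and *Tnni2* (-0.88) have intervals that leave out 0, and neither passed the adjusted threshold.

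Among the regulators, *Myog*, the factor of differentiation, was by far the most abundant. Its normalised count ran from 188 over a median of 481 to 638 in iCreb5, and from 307 over 402 to 718 in tdTomato. The highest library, tdTomato 5b, and the lowest, iCreb5 3c, were from opposite groups, and the log2 change was -0.03 ± 0.28 (SE; adjusted p = 0.974, limma). *Myod1*, which commits cells to the lineage, ran from 45.0 over 64.9 to 139 in iCreb5 and from 27.9 over 62.4 to 87.5 in tdTomato. iCreb5 6 stood at the top, and the change was 0.32 ± 0.32 (adjusted p = 0.674, limma). *Myf5*, the earliest of the 3 in the limb, ran from 1.52 over 27.8 to 32.1 in iCreb5 and from 12.9 over 20.97 to 42.6 in tdTomato. Its 2 lowest libraries were iCreb5 3c and iCreb5 3a, and the other 4 iCreb5 libraries lay at 26.9 or more, within the range of tdTomato.

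The regulators that did not reach the level of testing stood at a few reads. *Pax3*, which marks migrating precursors, had a median of 2.88 in iCreb5 and 8.76 in tdTomato, with ranges of 0 to 8.43 and 3.67 to 18.3. *Pax7*, a marker of later muscle progenitors, had medians of 6.48 and 3.74 and was at 0 in 1 iCreb5 and 2 tdTomato libraries. *Myf6*, a factor of maturing fibres, reached 11.0 in iCreb5 5 and was at or below 2.79 in every other library. The value of 3 reads lay between 1.48 and 8.38 depending on the library, so these values are imprecise. Fitted without the filter on low values, *Pax3* had a log2 change of -1.41 (95% interval -2.63 to -0.20, unadjusted p = 0.0253, adjusted p = 0.285, limma), and for *Pax7* and *Myf6* the intervals lay on both sides of 0.

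**Figure D2:**
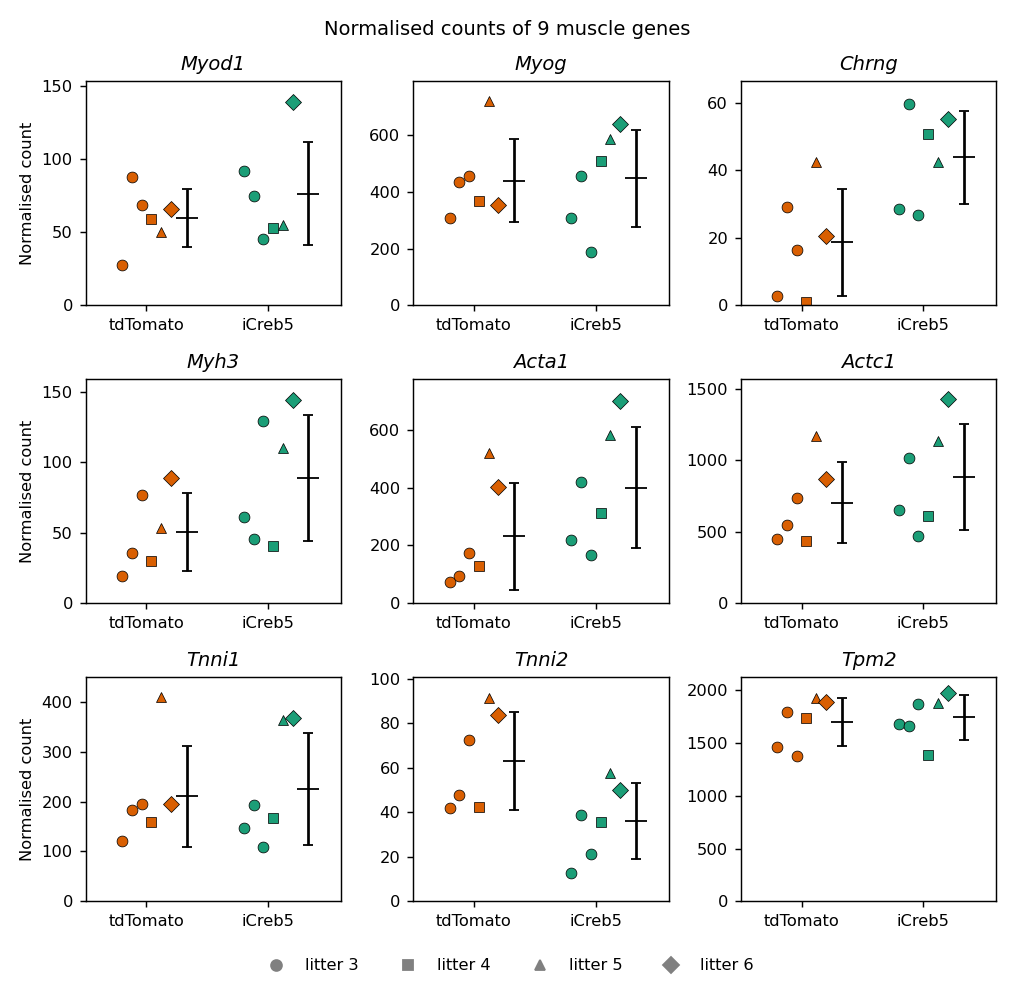
Normalised counts (vertical axis, linear from 0) of 9 muscle genes in the 6 tdTomato libraries (orange) and the 6 iCreb5 libraries (green), with symbols for the litter and black bars for the mean and SD. The groups overlap for every gene, and the libraries of litters 5 and 6 hold the 3 highest values of *Myog*, *Acta1*, *Actc1* and *Tnni1*.

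Of the genes of adhesion, fusion and the synapse, the acetylcholine receptor gamma subunit *Chrng*, which belongs to the embryonic form of the receptor, showed the largest change of all members. It ran from 26.8 over 46.5 to 59.7 in iCreb5 and from 0.919 over 18.5 to 42.6 in tdTomato. The 4 lowest of the 6 tdTomato libraries lay below every iCreb5 library, but tdTomato 5b and tdTomato 3b fell inside the range of iCreb5. The change was 1.80 ± 0.65 on the log2 scale (SE; unadjusted p = 0.0144, adjusted p = 0.133, limma). tdTomato 3a and tdTomato 4a each rested on a single read, and without the latter the change was 1.26 (adjusted p = 0.227, limma). On recovered reads, edgeR gave 1.19 (adjusted p = 0.264). *Chrna1*, the alpha subunit of the same receptor, had medians of 111 and 87.1 and a change of 0.12 (adjusted p = 0.887, limma). *Mymk*, needed for fusion of myoblasts, had medians of 98.6 and 65.1 and a change of 0.41 (adjusted p = 0.501). *Cdh15*, the cadherin of myoblasts, was the steadiest of the 4 in iCreb5, with 145 ± 13.0 against 132 ± 44.1 in tdTomato (mean ± SD, n = 6 each).

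The 7 thick filament genes all had a log2 change above 0 and none passed the test, with adjusted p from 0.316 to 0.802 (limma). *Myh3*, the embryonic myosin heavy chain, ran from 40.9 over 85.9 to 144 in iCreb5 and from 19.5 over 44.4 to 89.2 in tdTomato. iCreb5 6, 3c and 5 lay above all tdTomato libraries, the other 3 iCreb5 libraries lay within their range, and the change was 0.81 ± 0.41 (adjusted p = 0.316). The perinatal chain *Myh8* had medians of 28.9 and 20.8, and the slow chain *Myh7*, also used in heart, had means of 14.7 and 7.66. The light chains *Myl1*, *Myl4* and *Mylpf* had medians of 105, 100.4 and 179 in iCreb5 and 54.7, 77.1 and 125 in tdTomato. In each of these light chains tdTomato 5b, iCreb5 6 and iCreb5 5 were the 3 highest libraries. *Unc45b*, a chaperone that folds myosin, had medians of 38.1 and 31.3. Parts of these genes cannot be told from relatives by short reads. Of the 50-base windows along a transcript, 22.2% of *Myh7* occurred also in the cardiac chain *Myh6*, 21.4% of *Myh8* in other myosins, and 23.4% of *Myl1* in the pseudogene *Mylf-ps*.

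In the thin filament, *Acta1*, the actin of adult skeletal muscle, ran from 167 over 365 to 698 in iCreb5 and from 72.6 over 151 to 520 in tdTomato. iCreb5 6 and iCreb5 5 were highest and the tdTomato libraries of litters 3 and 4 were the lowest but for iCreb5 3c, which stood just under tdTomato 3c. The change was 0.98 ± 0.47 (SE; unadjusted p = 0.0523, adjusted p = 0.282, limma). With the litter as a replicate block, *Acta1* alone of the members passed, at the same change (adjusted p = 0.036, limma), where 9.48% of all tested genes did. With the litter 3 libraries averaged within groups under that block, the change was 0.86 (adjusted p = 0.0421). *Actc1*, the actin of heart and of embryonic skeletal muscle, ran from 471 over 832 to 1429 in iCreb5 and from 436 over 644 to 1167 in tdTomato. The groups overlapped over most of their range, and the change was 0.32 ± 0.29 (adjusted p = 0.632). *Tpm2*, a tropomyosin also made outside skeletal muscle, was level, with 1740 ± 212 against 1696 ± 227 (mean ± SD, n = 6 each; change 0.04, adjusted p = 0.914). *Neb*, the giant ruler of the thin filament, had medians of 99.9 and 72.4 and a change of 0.86 (adjusted p = 0.345).

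The troponins hold the calcium switch of the thin filament, and fast and slow fibres use different genes for each subunit. The fast inhibitory subunit *Tnni2* (chr7:142441808-142444410) ran from 12.6 over 37.3 to 57.7 in iCreb5 and from 41.9 over 60.3 to 91.3 in tdTomato. iCreb5 3a, 3c, 4a and 3b lay below every tdTomato library, while iCreb5 5 and 6 lay inside their range. The change was -0.88 ± 0.36 (SE; unadjusted p = 0.028, adjusted p = 0.199, limma). The slow inhibitory subunit *Tnni1* (chr1:135779434-135810989) ran from 109 over 181 to 368 in iCreb5 and from 120 over 189 to 409 in tdTomato, with a change of 0.06 ± 0.32 (adjusted p = 0.953). Its 3 highest libraries were tdTomato 5b, iCreb5 6 and iCreb5 5. The fast *Tnnt3* and slow *Tnnt1*, which anchor the complex to tropomyosin, had log2 changes of -0.24 and 0.03, and *Tnnt2*, the form of heart and embryonic muscle, 0.44. The calcium-binding subunits *Tnnc1* (slow and heart) and *Tnnc2* (fast) had 0.52 and 0.43. None of these 5 passed, with adjusted p from 0.465 to 0.962 (limma). *Tnnc2* is uncertain, because 74% of its exon length lies opposite exons of the abundant *Ube2c* (mean normalised count 5974) and the sources used here do not say whether counting used the strand.

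Among the genes of the Z-disc and the long filaments, *Ttn*, the molecular spring of the sarcomere, had medians of 63.7 and 59.9 but reached 355 in iCreb5 6 and 199 in tdTomato 5b. *Actn2*, the alpha-actinin of all striated muscle, had medians of 106 and 93.9 (change 0.57, adjusted p = 0.463, limma). *Actn3*, the alpha-actinin of fast fibres, had 115 and 137 and a change of -0.24 (adjusted p = 0.572). *Des*, the intermediate filament of muscle cells, was level, with 243 ± 50.1 against 261 ± 59.99 (mean ± SD, n = 6 each). Of the genes of calcium and energy, the release channel *Ryr1* had medians of 45.9 and 43.3, the calcium store protein *Casq2* 46.2 and 24.9, and the creatine kinase *Ckm* 11.2 and 5.26. *Casq2* spanned 5.58 to 120.2 within tdTomato alone, and *Ckm* was at 0 in iCreb5 3c.

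The balance of fast and slow troponin I differed between the groups in the test of all 12 libraries, but did not pass under every alternative. The ratios were chosen with earlier results of these data known, so the p-values here are not those of an independent test. Taken within each library as the log2 ratio of (value + 1), *Tnni2* over *Tnni1* was -2.62 ± 0.47 in iCreb5, against -1.68 ± 0.36 in tdTomato (mean ± SD, n = 6 each). The iCreb5 libraries ran from -3.44 to -2.20 and the tdTomato libraries from -2.15 to -1.21, so the groups did not overlap, though iCreb5 4a and tdTomato 5b were close. The difference was -0.94, a ratio 0.521 times that of tdTomato (exact permutation test, two-sided, p = 0.00216, the smallest that 924 splits allow; adjusted p = 0.0173 over 8 ratios). Within litter 3 the difference was -1.07 and within litters 4 to 6 it was -0.81. With shuffling confined to litters (replicate block), the p was 0.0125, again the smallest possible, and the adjusted p of 0.050 no longer passed. It also missed with 10 added to each value (difference -0.77, adjusted p = 0.0519) and without litter 5 (-1.03, adjusted p = 0.0635), and held when any single library was left out.

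Other ratios did not pass. *Tnnt3* over *Tnnt1* differed by -0.27 (exact permutation p = 0.5, adjusted p = 0.727), and *Tnnc2* over *Tnnc1* by -0.09 (exact permutation p = 0.751, adjusted p = 0.858). The ratio of *Acta1* to *Actc1*, the actin of mature muscle to the embryonic one, was -1.22 ± 0.27 in iCreb5, against -1.88 ± 0.66 in tdTomato (mean ± SD, n = 6 each). All 6 iCreb5 libraries lay above the tdTomato mean, but 2 tdTomato libraries, 5b and 6d, fell within the range of iCreb5 (difference 0.66, exact permutation p = 0.0476, adjusted p = 0.127). Inside each litter the iCreb5 libraries lay above the tdTomato libraries, narrowly in litter 5 (-0.96 against -1.16) and litter 6 (-1.03 against -1.12). With shuffling confined to litters (replicate block), the p was 0.0125, the smallest possible, and the adjusted p of 0.050 did not pass, the same values as for *Tnni2* over *Tnni1*. For *Acta1* over *Myog* the iCreb5 libraries again all lay above the tdTomato mean, while tdTomato 5b lay inside their range and 6d above it (difference 1.01, exact permutation p = 0.0411, adjusted p = 0.127). Without tdTomato 6d both passed, at adjusted p = 0.0462 and 0.026 (exact permutation). With any other single library left out neither passed, with adjusted p from 0.0693 to 0.237 for *Acta1* over *Actc1* and from 0.075 to 0.231 for *Acta1* over *Myog* (exact permutation). The myosin ratios *Myh8* over *Myh3* and *Myh7* over *Myh3* and the regulator ratio *Myod1* over *Myf5* differed by -0.28, 0.11 and 0.86, with adjusted p from 0.511 to 0.916 (exact permutation).

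**Figure D3:**
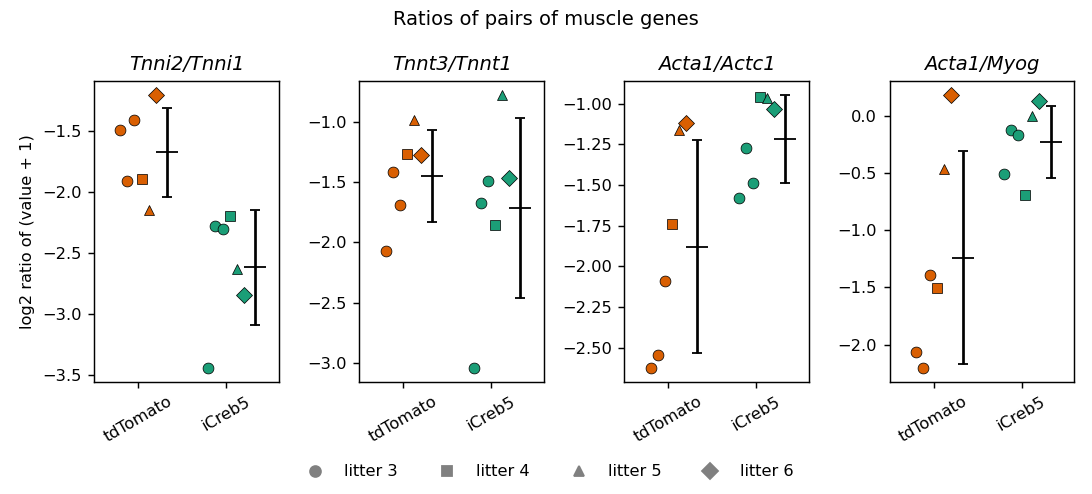
Log2 ratio of (value + 1) for 4 pairs of muscle genes (vertical axes, each with its own range) in each tdTomato (orange) and iCreb5 (green) library, with symbols for the litter and black bars for the mean and SD. For *Tnni2/Tnni1* the lowest tdTomato library (-2.15) lies just above the highest iCreb5 library (-2.20), while the groups overlap in the other 3 panels.

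Many muscle genes varied together between libraries. With the group mean removed, the log2 values of 2 members correlated above 0.5 in 219 of 496 pairs (44.2%) over the 12 libraries, with a median r of 0.46. Over all pairs of tested genes the share was 13.2% and the median 0.00. The members' median was 0.37 inside litter 3, and 0.57 for litters 4 to 6 alone. *Actc1* was joined most closely to the others, with a median r of 0.72, then *Tnnc1* at 0.69, *Acta1* at 0.67, and *Tnni2* and *Tnni1* at 0.66. Actin, troponin and the light chain *Myl4* were joined with *Mymk* and *Myog* in this block. *Myod1* at 0.21, *Cdh15* and *Des* at 0.17, *Actn3* at -0.10 and *Ryr1* at -0.28 stood outside it. These r values share libraries, depth and litters and are given as a description.

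**Figure D4:**
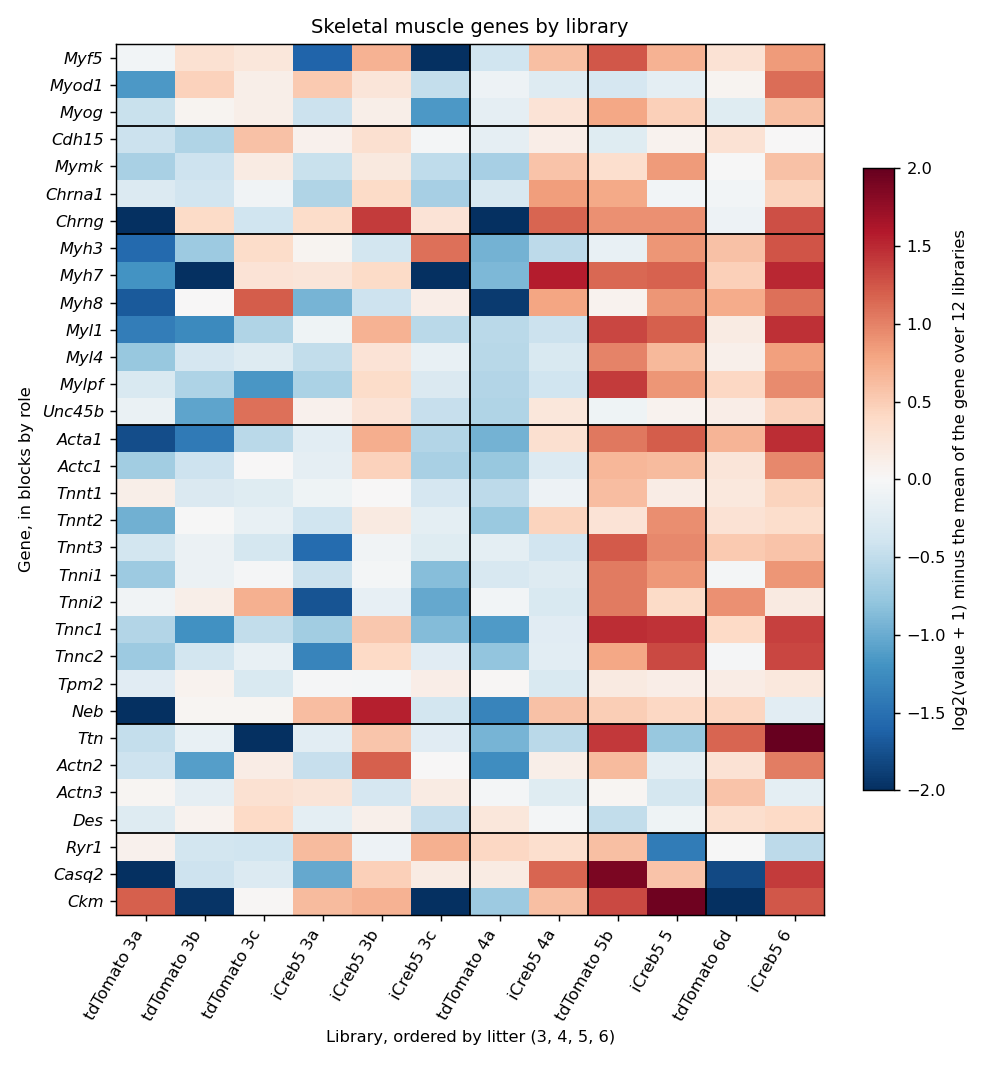
Deviation of each tested muscle gene (rows, in blocks by role) from its mean over the 12 libraries on the log2(value + 1) scale (colour, cut at -2 and 2), with libraries in columns ordered by litter. Most rows are red in tdTomato 5b, iCreb5 5 and iCreb5 6 and blue in tdTomato 3a and tdTomato 4a, whichever the group.

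The libraries that stood high came from both groups. Of the 32 tested members, 10 had their highest value in tdTomato 5b, 9 in iCreb5 6 and 3 in iCreb5 5. The lowest value lay in tdTomato 3a for 8 members and in tdTomato 4a for 6, and tdTomato 3a was also the shallowest library. It lay in iCreb5 3c for 5 members and in tdTomato 3b for 4. These were the deepest libraries, at 49214786 and 53269417 recovered reads, and a link of the lowest values with depth was not tested. In the pair of libraries from litter 5, 12 of the 32 were higher in iCreb5, whereas in the pairs of litters 4 and 6 it was 25 and 27. The iCreb5 mean of litter 3 was higher for 21. Summed over 19 sarcomere genes (without *Tpm2*, *Des* and *Tnnc2*), iCreb5 ran from 1863 to 4833 and tdTomato from 1525 to 4400. Litters 4 to 6 against litter 3, with the group as a term, called 0 members (limma), where 0.0179% of all tested genes passed. At an unadjusted p under 0.05, 10 of 32 members were higher in litters 4 to 6, where 4.03% of all tested genes were, and the members' median difference was 0.55. Whether the group effect differed between litter 3 and litters 4 to 6 was tested as an interaction, and 0 members passed (limma), as did 0% of all tested genes. At an unadjusted p under 0.05 there was 1 member, *Ryr1*, where the share over all tested genes was 6.05%.

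Among 10 pairs of genes correlated over the 12 libraries after removal of the group means, 3 had a Pearson's r that passed adjustment over the 10. *Acta1* with *Tnni2* gave Pearson's r = 0.83 (permutation p = 0.00042, adjusted p = 0.0042) and Spearman's rho = 0.87 (permutation p = 0.00012, adjusted p = 0.0012), and r was 0.84 without tdTomato 5b and 6d, the farthest libraries. *Myog* with *Acta1* gave r = 0.72 (permutation p = 0.00394, adjusted p = 0.0197) and rho = 0.75 (permutation p = 0.00491, adjusted p = 0.0245). Without iCreb5 3c and tdTomato 5b r fell to 0.51 (permutation p = 0.126), so its size depended on those libraries. With any single library left out, r ran from 0.63 to 0.88 and the adjusted p (permutation) from 0.0025 to 0.0977. *Actc1* with *Tnnt2* gave r = 0.73 (permutation p = 0.0142, adjusted p = 0.0473) and rho = 0.69 (permutation p = 0.0232, adjusted p = 0.0774), and r was 0.75 without iCreb5 6 and tdTomato 5b. In these 3 pairs r was 0.79, 0.86 and 0.63 inside litter 3, and 0.97, 0.64 and 0.67 for litters 4 to 6 alone. With the litter as a replicate block, 0 of the 10 passed. *Myod1* with *Myog* gave r = 0.37 and *Myog* with *Myh3* 0.09, and *Myog* showed r of -0.08 with the leukocyte gene *Ptprc*, -0.05 with the endothelial gene *Cdh5*, -0.38 with the cartilage gene *Col2a1* and -0.02 with *Prrx1*. None of these passed.

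Outside the set, the genes most like *Myog* over the 12 libraries by the same r were *Mex3b* (0.94), *Nrbf2* and *Tmem70* (0.92), *Rras* (0.91), *Cldnd1*, *Atp6v1d* and *Rabggtb* (0.90), and *Nog*, *Fitm1* and *Gtpbp4* (0.89). Of the 100 tested genes nearest to *Myog*, 3 were members and 1 was another muscle gene. Those most like *Acta1* were *Lpxn* (0.96), *Srgn* (0.94), *Cpa3* (0.92), *Gzmb* (0.89), *Alas2* and *Mybph* (0.88), *Foxk1* (0.87), and *Creg1*, *Basp1* and *Rhod* (0.86). Of the 100 nearest to *Acta1*, 9 were members, 1 was another muscle gene and 4 were red cell markers.

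Markers of other cells moved with the libraries and with the groups. The 7 red cell markers, led by the globins, summed to 1429 to 5141 in litter 3, 5483 to 8473 in litter 4, 18550 to 26318 in litter 5 and 15016 to 18301 in litter 6. They were high in tdTomato 5b, iCreb5 5 and iCreb5 6, as the sarcomere genes were, and *Slc4a1* was at 0 in some libraries. Elsewhere the order differed. In tdTomato 4a the red cell sum was 8473 and the sum of the 19 sarcomere genes, 1525, the lowest of all, whereas in iCreb5 3b these were 5141 and 3290. The 10 leukocyte markers, all called higher in iCreb5, summed to 1911 to 8975 in iCreb5 and 514 to 878 in tdTomato, with *Ptprc* at 0 in 3 libraries. Of 8 endothelial markers 5 were higher, and all 8 cartilage markers were lower in iCreb5. The 8 neuron markers summed to 6941 to 11242 in iCreb5 and 1480 to 2219 in tdTomato, and of the 7 tested 3 were higher (*Isl1* and the neurofilaments *Nefl* and *Nefm*) and 1 lower (*Stmn2*), with *Elavl3* at 0 in some libraries. The 8 markers of Schwann cells and melanoblasts summed to 239 to 451 in iCreb5 and 448 to 575 in tdTomato, and of the 7 tested 1 was lower and none higher. The part of all these cells in the muscle values, those of the synapse genes *Chrng*, *Chrna1* and *Ache* included, was not tested. Heart markers bear on *Actc1*, *Tnnt2*, *Tnnc1* and *Myh7*, which heart muscle also uses. The 10 in the list summed to 665 to 1254 in iCreb5 and 384 to 626 in tdTomato. Most of this sum was *Hand2*, which limb mesenchyme also makes and which was the 1 heart marker called higher (772 against 411, adjusted p = 0.00787, limma). Of the 4 heart markers tested, 2 had a log2 change above 0 and 2 below, the lowest at -2.17. None was called lower, and 1 was lower at an unadjusted p under 0.05 (limma). Apart from *Hand2*, *Myh6* reached 82.5, *Tnni3* 46.0 and *Gata4* 40.4, while *Nkx2-5*, *Myl7*, *Nppa* and *Nppb* never exceeded 3.04. The part of heart transcripts in the muscle values was not tested. Smooth muscle is another source of actin and tropomyosin, and of its 9 tested markers 1, *Cnn1*, was higher in iCreb5, 376 ± 72.9 against 185 ± 69.1 (mean ± SD, n = 6 each; adjusted p = 0.00477, limma).

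**Figure D5:**
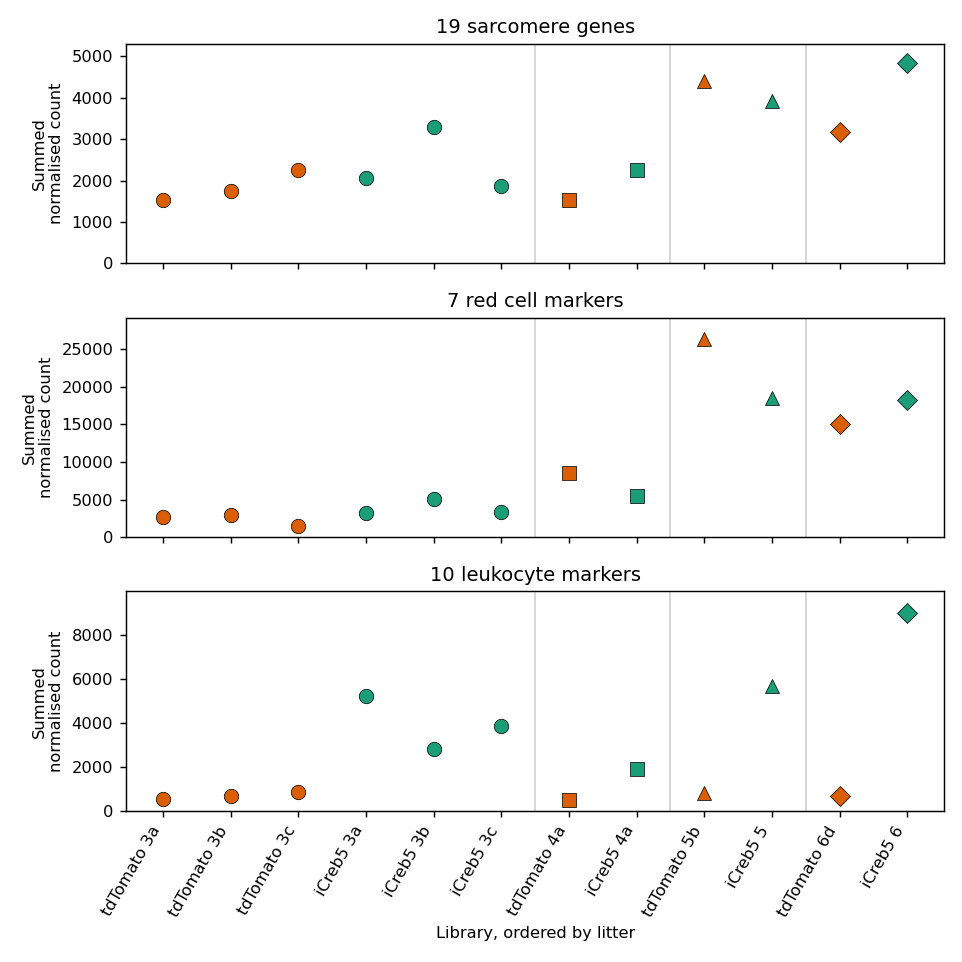
Summed normalised counts (vertical axes, linear from 0) of 19 sarcomere genes, 7 red cell markers and 10 leukocyte markers in each library, ordered by litter, with orange for tdTomato and green for iCreb5. The red cell sums of litters 5 and 6 lie above all others in both groups, the sarcomere sum is highest in iCreb5 6, tdTomato 5b and iCreb5 5, with tdTomato 6d (3162) under iCreb5 3b (3290), and the leukocyte sum is 1911 or more in every iCreb5 library and 878 or less in every tdTomato library.

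Beyond the 35, a list of 70 other genes of muscle was looked at, of which 47 were tested. Of these, 7 (14.9%) were higher and 1 (2.13%) lower in iCreb5, where 3.87% and 2.85% of all tested genes were, and their median change was 0.12. Of the 8 called genes 5 were regulators. Which cells made the RNA of these 8 was not tested, so the calls cannot be read as changes of muscle cells. *Meox2*, a homeobox gene of limb muscle, rose from 3636 ± 494 to 8188 ± 898 (mean ± SD, n = 6 each; change 1.18, adjusted p = 8.38e-06, limma), and *Met*, the receptor of hepatocyte growth factor, from 118 ± 31.6 to 297 ± 119 (change 1.28, adjusted p = 0.0067). Both means of *Meox2* lay far above 718, the highest value of *Myog* in any library. *Ache*, the esterase of the nerve-muscle synapse, rose from 29.7 ± 11.5 to 73.9 ± 12.4 (change 1.34, adjusted p = 0.00559). Also called were *Tpm1* and *Casq1*, higher by 0.49 and 0.82, and *Mef2c*, lower with a change of -0.55. *Tpm3* and *Boc*, the most abundant genes of the list that did not pass, had changes of -0.09 and -0.06. Of the 13 tested sarcomere genes in it, *Tpm1* alone passed, and it is made in most cell types.

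A list of 8 genes was kept for muscle connective tissue and for signals to muscle precursors. It held *Tcf4*, a basic helix-loop-helix gene that is not a marker of that tissue. It was higher in iCreb5 (change 0.49, adjusted p = 0.0209, limma) and was set aside after its value was seen. Among the other 7, the test called 2 higher in iCreb5 and none lower, where it called 3.87% of all tested genes higher. *Hgf*, the ligand of *Met*, had a mean of 490 ± 64.2 against 256 ± 21.99 (SD, n = 6 each; change 0.93, adjusted p = 0.000297, limma), and *Osr2* 6310 ± 352 against 3115 ± 334 (change 1.02, adjusted p = 4.9e-06). *Cxcl12* and *Osr1* did not pass, with changes of -0.37 and -0.06.

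Depth and checks bore on all of these values. The libraries held 9024162 to 53269417 recovered reads, and 31 of the 35 members had reads in every library. *Creb5* itself, as annotated in mouse, was 2799 ± 214 in iCreb5 against 1803 ± 299 in tdTomato (mean ± SD, n = 6 each; change 0.65, adjusted p = 0.00219, limma). The sources used here do not say how reads of the bovine transgene were counted. *Prrx1*, the marker of the sorted mesenchyme, ran from 3066 to 4620 in iCreb5 and from 3955 to 6260 in tdTomato.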

How the data were processed

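RNA sequencing of 12 libraries was used. Per the submitters' processing notes, FastQC, STAR, Salmon, DESeq2 and mm10 were involved, without versions or roles. The authors deposited normalised signal per gene, judged from the values to be counts divided by a size factor: 100% were whole multiples of the value of 1 read within a tolerance of 1e-06. Recovered reads were 9024162 to 53269417 per library, and 3 reads equalled 1.48 to 8.38 units (counting error only). The 8 columns of a deposited table of another stage could not be tied to a labelled sample and were left out.

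The fit of iCreb5 against tdTomato used limma 3.58.1 (R 4.3.3; two-sided, eBayes with trend) without covariates on log2(value + 1), with Benjamini-Hochberg over the 16733 genes at 10 or more in at least 6 libraries. For low genes a fold on this scale depends on the 1 added to each value. The log2 change of *Chrng* was 1.80 with 1 added, 1.91 with 0.5 and 1.08 with 10, and 1.19 in edgeR. edgeR 4.0.16 and DESeq2 1.42.0, run on the recovered reads, called 1112 and 1637 genes (limma 1125). Alternatives were other pseudocounts, filters and scalings, each library left out, litters separately, and litter as a replicate block, which the labels give as pairing. Deviations of same-litter libraries of opposite groups correlated at 0.15, 0.35 and 0.00 in litters 4, 5 and 6, and at -0.24 to 0.21 in litter 3. For libraries of different litters the range was -0.26 to 0.22. The limma fit was tested on simulated data. Gene coordinates are GENCODE vM21 (GRCm38).

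Members, lists and ratios were chosen with earlier results of these data known. Named genes are *Creb5*, the members, the 4 largest called changes and 2 most abundant uncalled genes of each list, and the 10 genes most like *Myog* and *Acta1*. *Tpm1*, *Casq1*, *Mef2c*, *Prrx1* and the heart, neuron, red cell and leukocyte markers named by their levels were added after their values were seen. Some genes that the rule names are not reported here.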

Additional observations from a re-analysis of the deposited data

Results flagged for a closer look

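A library is listed here when its gap to the nearest of the other 5 in its group relative to the range of the group exceeded Dixon's critical value at the 95% level. In independent groups with a normal spread, this marks about 1 group in 20 by chance. Here 15 marks were found in 104 groups looked at. These groups share libraries and genes that vary together, so the count cannot be set against that rate. In tdTomato, replicate 5b was marked high for *Myog* (718), *Myf5* (42.6), *Chrna1* (166), *Myl1* (208), *Myl4* (190.2), *Tnni1* (409), *Tnnc2* (97.4) and *Casq2* (120.2), all normalised counts. Its sum over the 3 genes of calcium release and energy was also marked, at 202. Replicate 3c was marked high for *Unc45b* (74.0) and replicate 3a for *Myf6* (2.79, a single read). In iCreb5, replicate 3b was marked high for *Neb* (208), replicate 6 for *Ttn* (355) and replicate 5 for *Myf6* (11.0). Replicate 3c was marked low for the log2 ratio of *Myh7* to *Myh3* (-6.01), where *Myh7* rested on few reads.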

How the results depend on the processing

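No member was called when any single library was left out (0 to 0, higher and lower), and over all genes 484 to 705 were higher and 369 to 511 lower. With the litter as a replicate block, paired by label, 1 member was called higher (*Acta1*), with litter 3 averaged or not. Over all genes, the block without that averaging called 859 higher and 728 lower. Litter 3 alone gave 395 higher and 292 lower over all genes, and litters 4 to 6 gave 320 higher. The count of ratios that passed was 1, fell to 0 with a pseudocount of 10, with the replicate block and without litter 5, and ran from 1 to 3 with a library left out. The count of correlations that passed was 3, fell to 0 with the block and to 1 without litter 5 and without both tdTomato 3a (the shallowest) and tdTomato 5b (the farthest from its group), and ran from 1 to 3 with a library left out. Omission of litter 5 or of those 2 libraries was added after the data were seen.

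Some changes switched sign, passing in neither setting, and they were not all near 0: *Ckm* was 0.72, *Myf5* -0.54, *Myh8* 0.52 and *Ttn* 0.36 in the fit of all libraries. *Myog* was 0.046 without the 2 libraries, 0.037 at equal totals, 0.15 with the block and litter 3 averaged, 0.023 without litter 5, 0.34 in litters 4 to 6, 0.027 in edgeR and 0.020 in DESeq2. *Ryr1* was 0.033 without the 2 libraries, 0.27 without litter 5, 0.64 in litter 3, 0.016 in edgeR and 0.014 in DESeq2. In litter 3 alone *Unc45b* was -0.0012, *Tnni1* -0.15, *Chrna1* -0.047, *Ckm* -0.30 and *Myh8* -0.24. In litters 4 to 6 *Myf5* was 0.34, *Des* 0.071, *Tpm2* -0.10 (-0.031 with the block and litter 3 averaged) and *Ttn* -0.23. The *Myh7/Myh3* ratio was -0.23 at a pseudocount of 10. For *Myog*, r with *Myh3* was -0.28 with the block, -0.036 without litter 5 and -0.079 without the 2 libraries. With *Cdh5* it was 0.26 with the block and 0.11 without litter 5, with *Col2a1* 0.12 and 0.17, and with *Ptprc* 0.043 without litter 5 and 0.0028 without the 2 libraries.

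With a library left out, changes ran from -0.16 to 0.20 for *Myog*, -0.45 to 0.048 for *Tnnt3*, -0.038 to 0.28 for *Chrna1*, -0.11 to 0.27 for *Tnni1*, -0.27 to 0.16 for *Ryr1*, -0.056 to 0.68 for *Ttn*, -0.070 to 0.16 for *Tnnt1* and -0.019 to 0.10 for *Tpm2*. Ratios ran from -0.24 to 0.067 for *Tnnc2/Tnnc1* and -0.30 to 0.76 for *Myh7/Myh3*. Correlations of *Myog* ran from -0.22 to 0.14 with *Prrx1*, -0.27 to 0.39 with *Cdh5*, -0.068 to 0.45 with *Myh3* and -0.23 to 0.10 with *Ptprc*. The cause of these switches was not tested. *Pax3*, *Pax7* and *Myf6* stood under the filter and were fitted only without it. In the shallowest library, depth leaves values under 8.38 resting on fewer than 3 reads.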
